A study of Homo sapiens with 48 samples.

Results

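Glycolysis and the pentose phosphate pathway were followed through 34 genes, from the glucose transporters to the enzymes of lactate and ribose phosphate, in 2 lymphoma cell lines treated with 3 compounds. The genes were chosen by name as members of these pathways, with earlier results of these data known, and 34 of 34 were found among the 25066 genes of the count table. TMD8 and HBL1 are established lines of the activated B cell type of diffuse large B cell lymphoma, and every culture, controls included, carried Cas9. Cells of each line were harvested 3, 6 and 24 h after adding vehicle (DMSO), NGI-1 at 5 µM, acalabrutinib at 50 nM, or copanlisib at 20 nM, and each of these 24 groups has 2 libraries. NGI-1 inhibits the oligosaccharyltransferase that attaches N-glycans to proteins, acalabrutinib inhibits the B cell receptor kinase BTK, and copanlisib inhibits PI3K. The labels speak of duplicates without saying that they were separate cultures, so p-values measure the spread between these libraries, which may be technical. Each line stands for itself: line and any condition of its own culture cannot be told apart.

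Glycolysis splits glucose into pyruvate through hexokinase, phosphofructokinase, aldolase and the enzymes that follow, and lactate dehydrogenase turns pyruvate into lactate. The pentose phosphate pathway branches off after hexokinase and yields NADPH and ribose phosphate for nucleotides. Many of these genes are known targets of MYC and of HIF1, and activated B cells raise glucose use when receptor and PI3K signals reach them.

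Libraries held 7165377 to 11999050 counted reads. Summed B cell markers, 8 of 8 tested, lay between 5091 and 8360 CPM (reads of a gene scaled to the size of the library) in TMD8 and between 4161 and 7392 in HBL1. T and NK cell markers reached at most 0.603 CPM, myeloid markers 3.57 and erythroid markers 0.743, all summed over their lists, and stromal or epithelial markers lay between 8.55 and 24.6 CPM.

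Stretches before the start sites of 4 members are shown because these genes carry the main results: HK2, LDHA and ENO1 fell with each compound in both lines at 24 h, and PFKFB3 rose with copanlisib in TMD8. They are 250 bases upstream of a RefSeq start on GRCh38.p14, read 5′ to 3′ on the gene's strand, with CACGTG in capitals, the E-box letters that MYC with MAX and other factors of the same class can bind. The windows of HK2, LDHA and PFKFB3 were kept because they hold these letters. Windows of other starts of these genes without the letters, where present, are not shown. The reads were counted on another build, so these coordinates are for the sequences alone.
HK2, chr2:74834920-74835169, plus strand: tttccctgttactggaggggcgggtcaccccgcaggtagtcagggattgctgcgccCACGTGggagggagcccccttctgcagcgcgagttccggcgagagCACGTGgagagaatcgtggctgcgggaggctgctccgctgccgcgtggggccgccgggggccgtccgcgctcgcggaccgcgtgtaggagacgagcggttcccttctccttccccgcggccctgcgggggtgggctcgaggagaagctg
LDHA, chr11:18394313-18394562, plus strand: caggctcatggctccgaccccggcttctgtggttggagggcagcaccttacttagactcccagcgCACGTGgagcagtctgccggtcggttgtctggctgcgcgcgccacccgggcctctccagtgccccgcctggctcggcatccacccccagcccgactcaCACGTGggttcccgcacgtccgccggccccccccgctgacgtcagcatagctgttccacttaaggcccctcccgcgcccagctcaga
PFKFB3, chr10:6202682-6202931, plus strand: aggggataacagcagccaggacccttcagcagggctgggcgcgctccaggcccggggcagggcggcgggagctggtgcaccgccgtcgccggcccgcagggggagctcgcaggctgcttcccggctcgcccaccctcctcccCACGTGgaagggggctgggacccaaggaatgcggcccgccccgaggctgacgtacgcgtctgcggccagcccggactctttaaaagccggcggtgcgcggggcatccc
ENO1, chr1:8878687-8878936, minus strand: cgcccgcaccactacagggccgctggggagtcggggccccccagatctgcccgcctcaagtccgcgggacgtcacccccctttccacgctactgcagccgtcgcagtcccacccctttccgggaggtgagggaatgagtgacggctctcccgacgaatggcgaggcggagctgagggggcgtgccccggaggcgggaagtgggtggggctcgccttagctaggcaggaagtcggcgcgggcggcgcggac
The letters begin 194 and 149 bases before the start in HK2, 185 and 87 in LDHA and 108 in PFKFB3, and the window of ENO1 holds 0 matches. CACGTG, which reads the same on both strands, occurred before at least 1 start of 6 of the 31 members with an entry (19.4%), namely ALDOA, ALDOC, GAPDH, HK2, LDHA and PFKFB3, and of 2110 of 27305 genes (7.73%). The 31 members had 58 entries, and by single entries the shares were 6 of 58 (10.3%) and 2228 of 35116 (6.34%). PFKFB2, SLC2A3 and SLC16A1 had no entry. A match is a description of letters in a window, not a site of binding.

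The members took up less of each library after 24 h with any of the compounds. In TMD8 at 24 h they held 1.71% and 1.69% of reads in DMSO, 1.22% and 1.204% with NGI-1, 1.29% and 1.15% with acalabrutinib, and 1.24% and 1.11% with copanlisib. In HBL1 at 24 h they held 2.01% and 1.91% in DMSO, 1.66% and 1.60% with NGI-1, 1.71% and 1.64% with acalabrutinib, and 1.52% and 1.52% with copanlisib. Every treated library at 24 h lay under both DMSO libraries of its line. These are shares of RNA: fewer cells of one kind and less RNA per cell cannot be told apart in bulk samples.

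**Figure D1:**
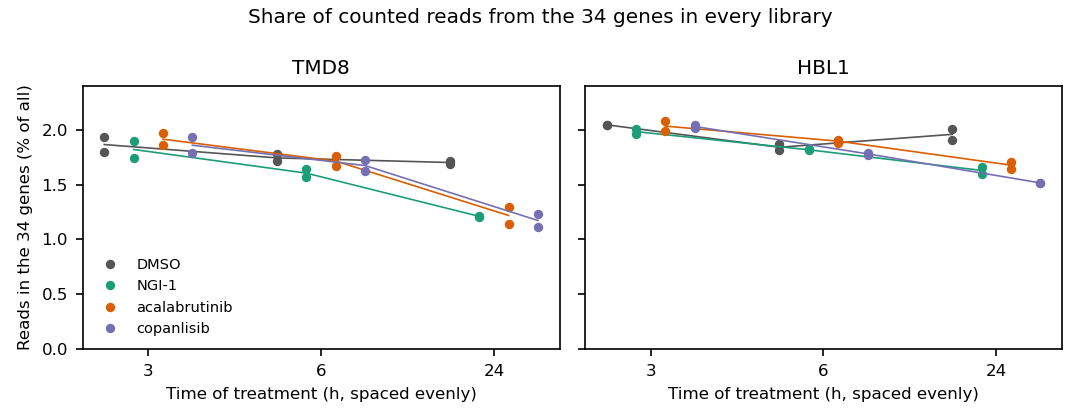
Share of all counted reads (%) from the 34 genes by time of treatment, spaced evenly, in TMD8 (left) and HBL1 (right); points are libraries and lines join group means. At 24 h the treated libraries lie below DMSO in both lines.

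Changes against DMSO were few at 3 h and broad at 24 h. Each was tested with edgeR's quasi-likelihood test, with Benjamini-Hochberg adjusted p under 0.05 called, over all 13881 genes tested. At 24 h in TMD8, 21 members fell and 2 rose with NGI-1, which is 61.8% lower where 14.8% of all genes were lower and 15.6% higher. With acalabrutinib 24 fell and 3 rose, 70.6% lower beside 15.5% of all genes lower and 15.3% higher, and with copanlisib 22 fell and 4 rose, 64.7% beside 16% lower and 15.6% higher. In HBL1, 16 fell and 0 rose with NGI-1, 47.1% lower beside 11.4% of all genes lower and 7.87% higher, and 12 fell and 2 rose with acalabrutinib, 35.3% beside 11.4% lower and 7.53% higher. With copanlisib in HBL1 20 fell and 2 rose, 58.8% beside 17.7% of all genes lower and 12.5% higher. The members' median log2 change at 24 h was -0.40, -0.51 and -0.51 in TMD8 for NGI-1, acalabrutinib and copanlisib, and -0.27, -0.22 and -0.30 in HBL1, with all-gene medians between -0.02 and 0.01. The HBL1 counts lean on 1 DMSO library: without DMSO replicate 1, NGI-1 gave 8 called members and acalabrutinib 5, and without acalabrutinib replicate 2 its count was 6. The 3 comparisons of a line and time share their DMSO libraries.

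**Figure D2:**
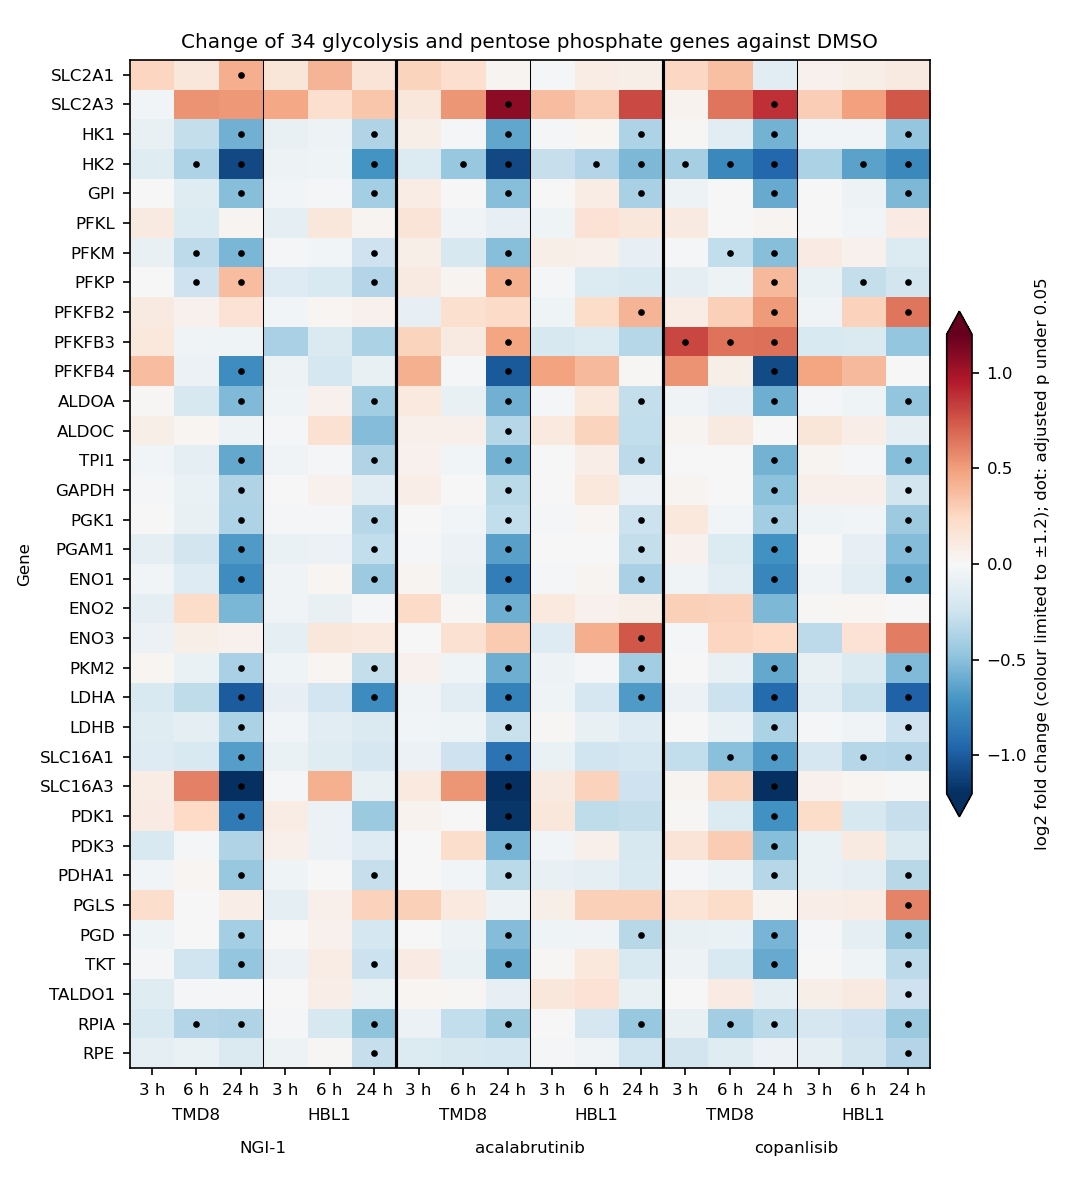
log2 fold change against DMSO (colour, limited to ±1.2) of the 34 genes in rows, over 3 compounds, 2 lines and 3 times in columns; a dot marks adjusted p under 0.05. Blue dots gather at 24 h, and the 3 h columns hold 2 dots, both for copanlisib in TMD8.

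Of the 34 members, 11 fell in each of the 6 comparisons at 24 h: HK1, HK2, GPI, ALDOA, TPI1, PGK1, PGAM1, ENO1, PKM2 (the older name of PKM), LDHA and RPIA. PDHA1, PGD and TKT fell in 5, PFKM, GAPDH, LDHB and SLC16A1 in 4, and PFKFB4, SLC16A3 and PDK1 in 3, all of these 3 in TMD8. ALDOC, ENO2, PDK3, TALDO1 and RPE fell in 1 or 2. The share of all genes that fell in as many of the 6 was not counted, and comparisons of a line share DMSO libraries. These counts thus list the members and do not measure how unusual they are. SLC2A1, SLC2A3, PFKFB2, PFKFB3, ENO3 and PGLS were called higher in at least 1 comparison and lower in 0, PFKP was called in both directions, and PFKL was called in 0 of the 6. Of the 128 calls of members at 24 h, 85 held under each alternative setting and without each library in turn. The calls of HK2, ENO1 and LDHA held in 6 of 6 comparisons, those of GPI, ALDOA and PKM2 in 5, those of HK1, TPI1, PGAM1 and RPIA in 4 and that of PGK1 in 3. The counting of reads that match several places was not given in the sources used here, and GAPDH, LDHA, ENO1, TPI1, PGAM1 and PGK1 have processed pseudogenes that can share reads with them, so their levels carry that uncertainty.

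HK2, the inducible hexokinase that traps glucose as glucose 6-phosphate, was 1 of the 2 members called at 3 h, with PFKFB3. At 24 h in TMD8 its level was 243.6 and 212.4 CPM in DMSO, 107.3 and 108.5 with NGI-1, 119.3 and 96.04 with acalabrutinib, and 137.7 and 98.7 with copanlisib. The treated libraries all lay under both DMSO libraries, and the log2 changes were -1.08 ± 0.11 (SE) with NGI-1, -1.08 ± 0.11 with acalabrutinib and -0.94 ± 0.11 with copanlisib, with adjusted p of 3.9e-10, 2.8e-10 and 6.8e-09. In HBL1 at 24 h HK2 was at 196.6 and 161.0 CPM in DMSO, 111.1 and 106.2 with NGI-1, 130.4 and 115.3 with acalabrutinib, and 108.0 and 101.4 with copanlisib. The groups again did not overlap, with changes of -0.72 ± 0.11, -0.54 ± 0.11 and -0.77 ± 0.11 (adjusted p 5.5e-06, 0.00034 and 6.4e-07). HK1, the constitutive hexokinase, changed by -0.62 to -0.57 in TMD8 and by -0.47 to -0.36 in HBL1. GPI, which turns glucose 6-phosphate into fructose 6-phosphate, changed by -0.60 to -0.51 in TMD8 and by -0.54 to -0.39 in HBL1. In HBL1 the acalabrutinib calls of HK1 and GPI were lost without DMSO replicate 1 or acalabrutinib replicate 2 (adjusted p up to 0.25), and the NGI-1 call of HK1 without DMSO replicate 1 or without NGI-1 replicate 2.

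HK2 was also lower at earlier times. At 6 h in TMD8 it was at 342.8 and 315.9 CPM in DMSO and at 201.1 and 184.9 with copanlisib, a change of -0.77 ± 0.11 (adjusted p 8.7e-07), and in HBL1 it went from 265.9 and 250 to 164.3 and 167.0 CPM, -0.64 ± 0.11 (adjusted p 4.4e-05). Both drops held without any single library. At 6 h HK2 also fell with NGI-1 in TMD8 by 0.37 on the log2 scale and with acalabrutinib by 0.45 in TMD8 and 0.35 in HBL1, and the NGI-1 call and the HBL1 call were lost when any 1 of their 4 libraries was left out. The acalabrutinib call in TMD8 was lost without acalabrutinib replicate 2 or DMSO replicate 1. At 3 h HK2 in TMD8 was at 258.4 and 237.3 CPM in DMSO and at 184.0 and 191.6 with copanlisib, -0.40 ± 0.11 (adjusted p 0.037), a call lost without any 1 of the 4 libraries (adjusted p up to 0.40). The same contrast in HBL1 gave -0.38 ± 0.11 with an adjusted p of 0.055. There the main fit called 0 members, and each of the 6 alternative settings called 1. A line difference at 3 h was not tested.

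LDHA, which reduces pyruvate to lactate, fell with each compound in both lines at 24 h. At 24 h in TMD8 it was at 1783 and 1609 CPM in DMSO, 866.5 and 828.9 with NGI-1, 1049 and 882.1 with acalabrutinib, and 986.7 and 803.4 with copanlisib. In HBL1 the values were 1699 and 1593 in DMSO, 984.6 and 962.8 with NGI-1, 1007 and 1054 with acalabrutinib, and 831.9 and 849.0 with copanlisib. No treated library reached a DMSO library in either line. The changes were -1.0 ± 0.09, -0.81 ± 0.09 and -0.92 ± 0.09 in TMD8 and -0.76 ± 0.09, -0.68 ± 0.09 and -0.97 ± 0.09 in HBL1, with adjusted p between 3.8e-11 and 9.2e-07. At 6 h LDHA had log2 changes from -0.30 to -0.13 in the 6 comparisons, with the lowest adjusted p at 0.056. LDHB, the other lactate dehydrogenase subunit, fell with each compound in TMD8 by 0.27 to 0.38 on the log2 scale and with copanlisib in HBL1 by 0.24, a call lost without DMSO replicate 1, without copanlisib replicate 2 or with no filter on low counts, and its acalabrutinib call in TMD8 was lost without acalabrutinib replicate 2 (adjusted p 0.12).

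ENO1, the main enolase, stood at 2635 and 2554 CPM in TMD8 DMSO at 24 h, 1577 and 1521 with NGI-1, 1605 and 1321 with acalabrutinib, and 1646 and 1378 with copanlisib. In HBL1 it stood at 2660 and 2352 in DMSO, 1928 and 1766 with NGI-1, 2008 and 1827 with acalabrutinib, and 1698 and 1635 with copanlisib. The treated libraries were lower in both lines, by -0.74 ± 0.08, -0.83 ± 0.08 and -0.78 ± 0.08 in TMD8 and by -0.44 ± 0.08, -0.39 ± 0.08 and -0.59 ± 0.08 in HBL1 (adjusted p at most 0.00041). Further enzymes from aldolase to pyruvate kinase also fell in all 6 comparisons. ALDOA changed by -0.58 to -0.53 in TMD8 and by -0.47 to -0.29 in HBL1, TPI1 by -0.62 to -0.56 and -0.51 to -0.31, PGK1 by -0.41 to -0.29 and -0.44 to -0.26, PGAM1 by -0.73 to -0.65 and -0.52 to -0.29, and PKM2 by -0.62 to -0.39 and -0.53 to -0.29. Many of the HBL1 calls rest on single libraries. Without DMSO replicate 1 the NGI-1 calls of TPI1, PGK1, PGAM1 and PKM2 were lost, as were the acalabrutinib calls of ALDOA, TPI1, PGK1 and PGAM1. Acalabrutinib replicate 2 was needed for the same 4 acalabrutinib calls, acalabrutinib replicate 1 also for those of PGK1 and PGAM1, and NGI-1 replicate 2 for the NGI-1 calls of PGAM1 and PKM2 (adjusted p up to 0.30). In TMD8 the acalabrutinib call of PGK1 was lost without acalabrutinib replicate 2 or DMSO replicate 2 (adjusted p up to 0.12). GAPDH fell with each compound in TMD8, by 0.33 to 0.49, and with copanlisib in HBL1 by 0.22. ALDOC, ENO2 and ENO3, the other aldolase and enolase genes, were each called in 1 of the 6 comparisons. ALDOC fell with acalabrutinib in TMD8 by 0.34 and ENO2 by 0.59, and ENO3 rose with acalabrutinib in HBL1 by 0.75 ± 0.27, from 2.59 and 5.05 to 5.92 and 6.58 CPM. Each of these 3 calls was lost in leave-outs: ALDOC without acalabrutinib replicate 2 or DMSO replicate 2, ENO2 also without acalabrutinib replicate 1, and ENO3 without DMSO replicate 1 or either acalabrutinib library. The HBL1 call of GAPDH was lost with DESeq2, RLE scaling, either other filter, or without DMSO replicate 1 or copanlisib replicate 2, and its acalabrutinib call in TMD8 was lost without acalabrutinib replicate 2 (adjusted p 0.064).

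Among the phosphofructokinases, which commit sugar to glycolysis, the 3 genes differed. PFKM fell at 24 h in TMD8 with each compound, with changes of -0.55 to -0.51, and in HBL1 with NGI-1 by 0.24, a call lost under 4 of 10 settings, DMSO replicate 1 or 2 left out among them, while PFKL stayed within -0.10 to 0.13 on the log2 scale in all 6 comparisons with no call. PFKP, the platelet type, was at 270.4 and 299.1 CPM in TMD8 DMSO at 24 h, 359.9 and 376.8 with NGI-1, 389.2 and 377.9 with acalabrutinib, and 361.2 and 383.4 with copanlisib. In HBL1 it was at 196.9 and 191.1 CPM in DMSO, 147.2 and 156.7 with NGI-1, 173.4 and 167.6 with acalabrutinib, and 167.1 and 166.8 with copanlisib. PFKP thus rose in TMD8 by 0.37 ± 0.07, 0.43 ± 0.07 and 0.39 ± 0.07 (adjusted p at most 9.5e-05), and in HBL1 it fell with NGI-1 by 0.35 ± 0.08 (adjusted p 0.00055) and with copanlisib by 0.22 ± 0.08, a call lost without any 1 of its 4 libraries, with DESeq2, with RLE scaling and with either other filter. At 6 h PFKP was called lower, also in TMD8: with NGI-1 in TMD8 by 0.25 ± 0.07 (adjusted p 0.039), from 255.5 and 246.1 to 212.9 and 208.3 CPM, a call lost with no filter and without any 1 of its 4 libraries, and with copanlisib in HBL1 by 0.29 ± 0.08 (adjusted p 0.0085), lost with no filter and without DMSO replicate 1 or copanlisib replicate 2. The test of the difference between lines at 24 h gave 0.72 ± 0.11 for NGI-1, 0.62 ± 0.11 for acalabrutinib and 0.60 ± 0.11 for copanlisib (TMD8 minus HBL1, adjusted p 1.1e-05, 0.00011 and 0.00012).

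**Figure D3:**
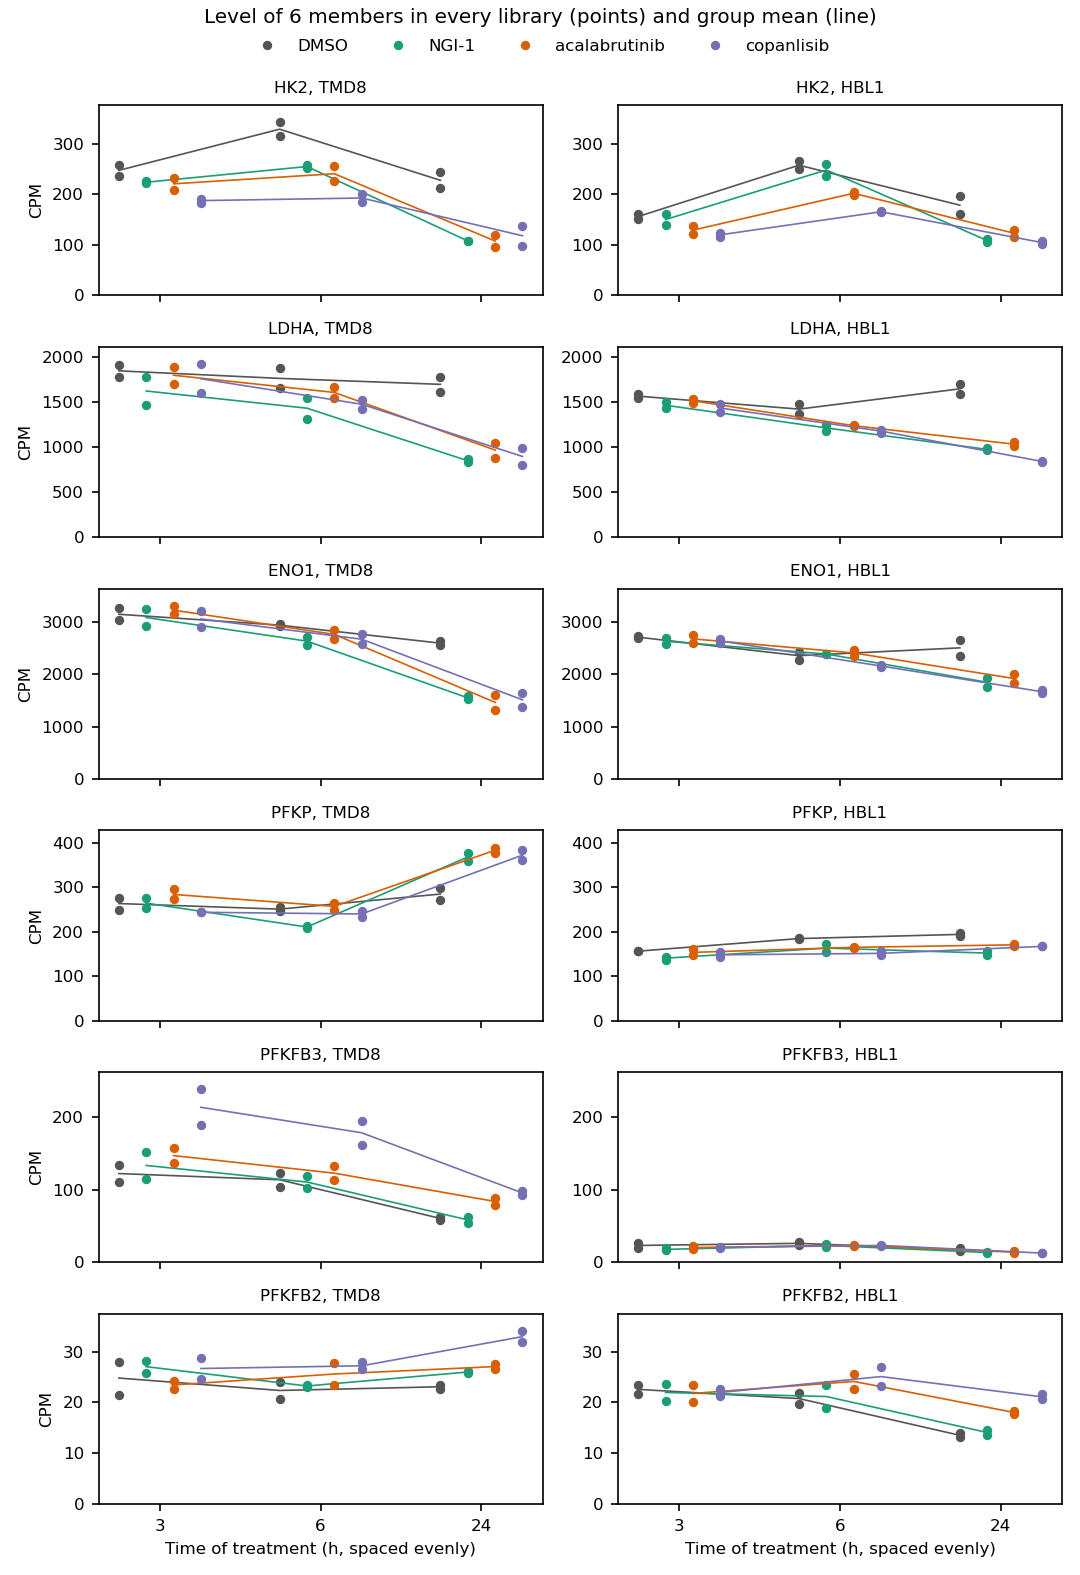
Level in CPM, from 0, of HK2, LDHA, ENO1, PFKP, PFKFB3 and PFKFB2 by time of treatment, spaced evenly, in TMD8 (left) and HBL1 (right); points are libraries, lines join group means. HK2, LDHA and ENO1 are lower in the treated libraries at 24 h in both lines, and PFKP is higher in TMD8 alone.

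The genes of fructose 2,6-bisphosphate, the strongest activator of phosphofructokinase, were called higher for 2 of 3 in at least 1 comparison. PFKFB3, the bifunctional enzyme that mostly makes this activator, was at 134.1 and 111.0 CPM in TMD8 DMSO at 3 h and at 238.8 and 189.4 with copanlisib. Its change was 0.80 ± 0.13 (adjusted p 0.00019), and it stayed higher with copanlisib at 6 h (0.65 ± 0.13) and 24 h (0.66 ± 0.14). At 24 h the libraries were at 62.95 and 58.2 CPM in DMSO, 62.8 and 54.4 with NGI-1, 89.2 and 78.8 with acalabrutinib, and 93.1 and 98.4 with copanlisib. Acalabrutinib gave 0.47 ± 0.14 in TMD8 (adjusted p 0.0094), lost without acalabrutinib replicate 1 or DMSO replicate 2. In HBL1 PFKFB3 was at 19.4 and 15.8 CPM in DMSO at 24 h and at 12.7 and 12.9 with copanlisib, a value of -0.47 ± 0.20 that was not called (adjusted p 0.072). The line difference of the copanlisib effect was 1.13 ± 0.24 (adjusted p 0.0033), or 0.962 with an adjusted p of 0.063 without HBL1 DMSO replicate 1.

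PFKFB2, a second bifunctional enzyme of this kind, rose with copanlisib at 24 h in both lines. Its libraries were at 22.7 and 23.5 CPM in TMD8 DMSO and at 31.9 and 34.02 with copanlisib, and at 14.0 and 13.1 CPM in HBL1 DMSO and at 21.6 and 20.6 with copanlisib. The changes were 0.51 ± 0.13 and 0.64 ± 0.14 (adjusted p 0.0015 and 0.00042), and no DMSO library reached a copanlisib library. Acalabrutinib gave 0.41 ± 0.14 in HBL1 (adjusted p 0.039), lost with no filter and without any 1 of its 4 libraries. PFKFB4 fell in TMD8 by 0.74 with NGI-1, 1.01 with acalabrutinib and 1.07 with copanlisib on the log2 scale, and in HBL1 its values lay between -0.09 and 0.01. The NGI-1 call of PFKFB4 was lost without NGI-1 replicate 1 or DMSO replicate 2 (adjusted p up to 0.20).

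The glucose transporters were called higher or not at all at 24 h. SLC2A1, the common glucose transporter GLUT1, was at 54.8 and 52.7 CPM in TMD8 DMSO at 24 h and at 70.3 and 74.8 with NGI-1, a change of 0.43 ± 0.13 (adjusted p 0.008) lost without NGI-1 replicate 2 or DMSO replicate 2. SLC2A3, the high affinity transporter GLUT3, lay between 2.58 and 7.36 CPM at 24 h in TMD8 and rose with acalabrutinib (1.07 ± 0.30) and copanlisib (0.87 ± 0.31). The first call was lost without DMSO replicate 1, and the second without that library or without copanlisib replicate 2 (adjusted p up to 0.30). Both genes had positive values in HBL1, of 0.07 to 0.16 for SLC2A1 and 0.33 to 0.79 for SLC2A3, none called.

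SLC16A1, the lactate transporter MCT1, was at 116.3 and 100.3 CPM in TMD8 DMSO at 24 h, 73.6 and 63.7 with NGI-1, 64.4 and 52.4 with acalabrutinib, and 77.6 and 57.4 with copanlisib. In HBL1 it was at 339.0 and 321.5 CPM in DMSO, 300.6 and 274.1 with NGI-1, 279.6 and 291.9 with acalabrutinib, and 252.2 and 265.8 with copanlisib. It fell in TMD8 by 0.66, 0.89 and 0.68 on the log2 scale (SE 0.12 to 0.13, adjusted p at most 8.2e-05) and in HBL1 with copanlisib by 0.35 ± 0.11, a call lost without DMSO replicate 1 or copanlisib replicate 1. SLC16A1 also fell with copanlisib at 6 h in TMD8 by 0.50 ± 0.12 (adjusted p 0.0032), which did not pass when DMSO replicate 1 or copanlisib replicate 2 was left out, and in HBL1 by 0.34, a call lost without any 1 of its 4 libraries. SLC16A3, the transporter MCT4, was at 1.94 and 7.92 CPM in its 2 TMD8 DMSO libraries at 24 h, so replicate 2 stood apart. With it, SLC16A3 was called lower with all 3 compounds, from -2.13 to -1.196. Without it each of the 3 calls was lost, and the copanlisib value turned to 0.176.

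Among the pyruvate dehydrogenase genes, PDK1 was called in TMD8 and PDHA1 in both lines. PDK1, a kinase that shuts the complex, was at 25.4 and 27.3 CPM in TMD8 DMSO at 24 h, 14.95 and 14.4 with NGI-1, 11.9 and 11.6 with acalabrutinib, and 16.4 and 15.3 with copanlisib. Its changes of -0.85 ± 0.19, -1.16 ± 0.19 and -0.73 ± 0.19 held without any single library, and the HBL1 values of -0.44 to -0.28 were not called. PDHA1, the catalytic subunit, fell in 5 comparisons by 0.28 to 0.45 on the log2 scale. Its NGI-1 call in HBL1 was lost when DMSO replicate 2 or NGI-1 replicate 1 was left out, and its acalabrutinib call in TMD8 without acalabrutinib replicate 2. PDK3, a related kinase, fell in TMD8 with acalabrutinib by 0.56 and with copanlisib by 0.51, the first lost without acalabrutinib replicate 2 or DMSO replicate 2 and the second under 5 of 10 settings, either DMSO replicate or copanlisib replicate 1 left out among them.

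Of the pentose phosphate genes, RPIA fell in all 6 comparisons at 24 h. RPIA, which makes ribose 5-phosphate, was at 76.4 and 69.04 CPM in TMD8 DMSO at 24 h, 57.8 and 55.6 with NGI-1, 55.9 and 52.1 with acalabrutinib, and 62.6 and 53.6 with copanlisib. In HBL1 it was at 81.2 and 78.4 CPM in DMSO, 57.1 and 56.9 with NGI-1, 54.2 and 62.1 with acalabrutinib, and 58.7 and 58.9 with copanlisib. Treated libraries lay below DMSO in both lines, by -0.43 to -0.32 in TMD8 and -0.49 to -0.44 in HBL1 (adjusted p at most 0.0072), with the NGI-1 call in TMD8 lost without DMSO replicate 1 and the copanlisib call in TMD8 lost without DMSO replicate 1 or copanlisib replicate 2. At 6 h RPIA also fell in TMD8 with copanlisib by 0.42 ± 0.09 (adjusted p 0.0012). PGD, an oxidative step that yields NADPH, fell in 5 of 6 comparisons by 0.34 to 0.56, and TKT, transketolase, in 5 of 6 by 0.26 to 0.61. The calls of PGD with acalabrutinib and of TKT with copanlisib in HBL1 were lost without DMSO replicate 1 or replicate 2 of the compound, and that of TKT with NGI-1 in HBL1 under 5 of 10 settings, DMSO replicate 1 or NGI-1 replicate 2 left out among them. TALDO1 and RPE were called lower in 1 and 2 comparisons, all in HBL1, and each of these calls was lost without DMSO replicate 1. PGLS rose in HBL1 with copanlisib by 0.60 ± 0.13 (adjusted p 0.00023), from 27.8 and 24.4 to 41.1 and 38.0 CPM.

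Most time differences that were called were toward a more negative change against DMSO at 24 h than at 3 h. This need not be a fall in level, since DMSO moved too. In TMD8 the mean of PFKM rose from 74.4 to 127.5 CPM in DMSO and from 69.8 to 87.3 with NGI-1. The change at 24 h differed from that at 3 h for 18 members with NGI-1 in TMD8 (17 more negative and 1 more positive, where 5.96% of all genes were lower and 6.02% higher in this contrast), 19 with acalabrutinib (18 and 1, beside 7.8% and 6.59%) and 18 with copanlisib (17 and 1, beside 5.86% and 5.06%). In HBL1 the counts were 4 (beside 2.54% lower), 2 (2.03%) and 10 (9 more negative and 1 more positive, beside 5.72% and 3.59%). These counts move with single libraries, falling to 7 for NGI-1 in TMD8 without NGI-1 replicate 2 at 3 h and to 9 without DMSO replicate 1 at 3 h, to 11 for copanlisib in TMD8 without copanlisib replicate 2 at 24 h, and in HBL1 to 1 for NGI-1, 1 for acalabrutinib and 5 for copanlisib without DMSO replicate 1 at 24 h. In HBL1 the NGI-1 count was also 1 without NGI-1 replicate 1 at 3 h and 2 without NGI-1 replicate 2 at 24 h or DMSO replicate 2 at 3 h. The acalabrutinib count was 1 without replicate 1 of acalabrutinib at 3 or 24 h or DMSO replicate 2 at 3 h, and the copanlisib count was 5 without copanlisib replicate 1 and 6 without DMSO replicate 2, both at 3 h. At 3 h the counts called against DMSO were 0 for NGI-1 in TMD8 (0.735% of genes called), 0 for NGI-1 in HBL1 (0.353%), 0 for acalabrutinib in both lines (0.339% and 0.223%) and 0 for copanlisib in HBL1 (2.22%), with 0, 2, 1, 1 and 2 members at unadjusted p under 0.05 and, by DESeq2, 0, 0, 0, 0 and 1 called. Copanlisib in TMD8 had 1 higher and 1 lower at 3 h (0.656% and 1.06% of genes), PFKFB3 and HK2, and 1 call without any 1 of the 4 libraries. At 6 h NGI-1 gave 4 lower in TMD8 (1.99%) and 0 in HBL1 (1.15% called either way, 4 members at unadjusted p under 0.05 and 0 by DESeq2), acalabrutinib 1 lower in each line (2.8% and 3.16%), and copanlisib 4 lower and 1 higher in TMD8 (7.42% and 6.98%) and 3 lower in HBL1 (5.34%). The NGI-1 count in TMD8 fell to 0 without DMSO replicate 1 or NGI-1 replicate 1, and to 1 without replicate 2 of either. The acalabrutinib count fell to 0 in HBL1 without any 1 library and in TMD8 without acalabrutinib replicate 2 or DMSO replicate 1. The copanlisib count fell from 5 to 3 in TMD8 without DMSO replicate 1 and from 3 to 1 in HBL1 without DMSO replicate 1 or copanlisib replicate 2.

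Few members were called for a difference between the lines at 24 h, which does not show equal responses. Line differences (TMD8 minus HBL1) were negative for 24, 29 and 25 of 34 members with NGI-1, acalabrutinib and copanlisib. The members' median log2 differences were -0.20, -0.24 and -0.12, beside 0.01, 0.03 and 0.04 for all genes. Unadjusted p in the edgeR test was under 0.05 for 10, 15 and 8 members. The compound effect differed between lines for 1 member with NGI-1 (1.81% of genes higher in TMD8), 7 with acalabrutinib (2 higher and 5 lower, beside 2.19% and 2%) and 2 with copanlisib (2 higher, beside 2.23%). PFKP was the 1 for NGI-1, and with acalabrutinib HK2 (-0.54), PFKM (-0.41), ENO1 (-0.44), SLC16A1 (-0.68) and PDK1 (-0.88) had more negative changes in TMD8. SLC16A1 had a standard error of 0.17 and an adjusted p of 0.012, and its difference was lost without acalabrutinib replicate 2 of either line, TMD8 DMSO replicate 1 or HBL1 DMSO replicate 2. The acalabrutinib count fell to 2 without any of 4 libraries: HBL1 acalabrutinib replicate 1, HBL1 DMSO replicate 2, TMD8 acalabrutinib replicate 2 or TMD8 DMSO replicate 1. It was 4 without HBL1 DMSO replicate 1 or TMD8 DMSO replicate 2. HK2 and ENO1 were lost without any of the first 4 libraries, PFKM without any of these 6 and PDK1 without any 1 of the 8. The copanlisib count was 1 without HBL1 DMSO replicate 1, and the NGI-1 count was 2 without TMD8 DMSO replicate 1.

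**Figure D4:**
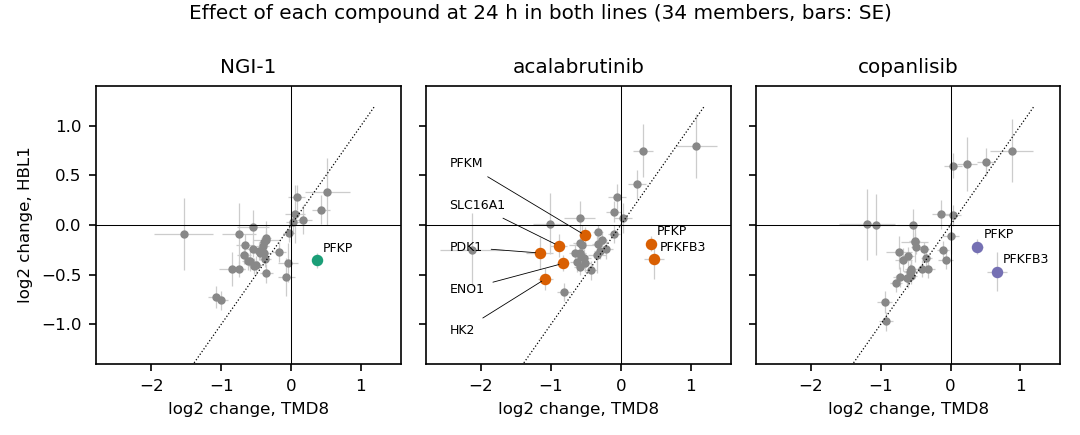
log2 change against DMSO at 24 h in TMD8 (x axis) and HBL1 (y axis) of the 34 genes for each compound, bars showing standard errors and the dotted line equal change; coloured, named genes differ between lines at adjusted p under 0.05. PFKP lies right of 0 in TMD8 and under 0 in HBL1 in all 3 panels.

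Compared directly at 24 h, the compounds differed for few members. Copanlisib against acalabrutinib called 0 of 34 members in either line (0.461% and 0.101% of all genes), with 4 and 8 at unadjusted p under 0.05 and 0 by DESeq2. For LDHA that difference was -0.11 in TMD8 (95% interval -0.299 to 0.08) and -0.29 in HBL1 (-0.484 to -0.105). NGI-1 against acalabrutinib also called 0 (1.3% and 3.25%), with 4 and 3 at unadjusted p under 0.05 and, by DESeq2, 1 in TMD8 and 0 in HBL1. For HK2 that difference was 0.00 in TMD8 (95% interval -0.225 to 0.23) and -0.18 in HBL1 (-0.402 to 0.049). NGI-1 against copanlisib called SLC2A1 higher (0.57 ± 0.13, adjusted p 0.0086; 1.07% of genes) and PFKFB3 lower (-0.71 ± 0.14, adjusted p 0.0027; 0.288%) in TMD8, and PFKFB2 lower in HBL1 (-0.58 ± 0.14, adjusted p 0.0062; 2.28%). Both TMD8 calls were lost without copanlisib replicate 2 or NGI-1 replicate 2, SLC2A1 also without copanlisib replicate 1, and the HBL1 call without copanlisib replicate 1 or NGI-1 replicate 1.

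The vehicle libraries themselves moved with time in culture. Between 3 h and 24 h in DMSO, 6 members (17.6%) rose and 8 (23.5%) fell in TMD8, beside 16.9% and 15.9% of genes. The TMD8 count was lower without DMSO replicate 1 at 3 h. In HBL1, 8 (23.5%) rose and 8 (23.5%) fell, beside 20.7% and 19%. These shares lie near or somewhat above those of all genes, so the counts are no result about the members. ALDOC, the brain type aldolase, had the most negative change of the members, from 272.8 and 247.5 CPM to 30.2 and 43.7 in TMD8 and from 110.2 and 113.7 to 9.46 and 10.6 in HBL1, with log2 changes of -2.81 ± 0.12 and -3.485 ± 0.14. PFKM rose in both lines, by 0.78 ± 0.08 and 0.49 ± 0.08, from 72.5 and 76.3 to 130.5 and 124.5 CPM in TMD8 and from 95.4 and 106.5 to 139.4 and 143.2 in HBL1.

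Single members differed in level between the lines. Averaged over the 3 times in DMSO, 14 members (41.2%) were higher in TMD8 and 11 (32.4%) lower. Of all genes 39.3% were higher and 39.2% lower, so the counts are no result about the members. ENO3, the muscle enolase, was higher in TMD8 by 3.62 ± 0.12 on the log2 scale, with 39.5 to 54.8 CPM in the 6 TMD8 vehicle libraries and 2.31 to 5.15 in HBL1. ALDOC was higher in TMD8 by 1.52 ± 0.07, PFKFB3 by 2.10 ± 0.09, and SLC16A1 and ENO2, the neuronal enolase, were lower by 1.54 ± 0.07 and 2.30 ± 0.12. No vehicle library of one line reached the other in these genes at the same time.

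**Figure D5:**
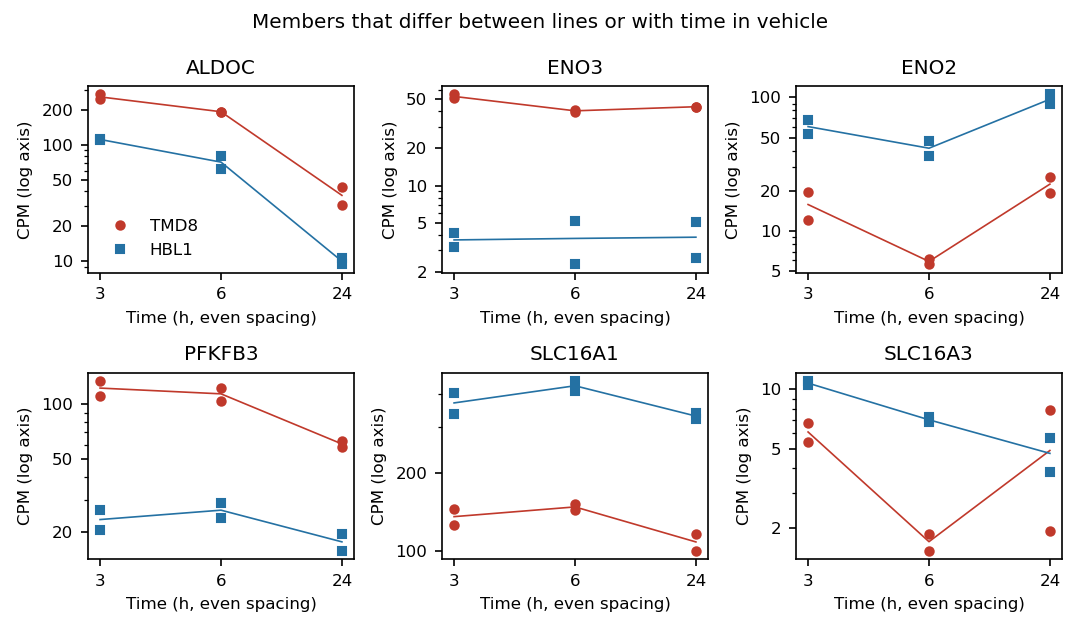
CPM on a log axis of 6 members in DMSO libraries by time, spaced evenly, with TMD8 as circles and HBL1 as squares and lines through group means. ALDOC drops at 24 h in both lines, and ENO3 and PFKFB3 lie higher in TMD8 than in HBL1.

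Other genes of the pathway and its known regulators were read from 4 lists. Of 43 further genes of glycolysis, the pentose phosphate pathway and pyruvate entry, 32 were tested, and at 24 h 9, 7 and 9 fell and 5, 5 and 3 rose in TMD8 with NGI-1, acalabrutinib and copanlisib, and 8, 5 and 10 fell and 4, 3 and 5 rose in HBL1. In the same order these are 28.1%, 21.9% and 28.1% lower and 15.6%, 15.6% and 9.38% higher in TMD8, beside 14.8%, 15.5% and 16% of all genes lower and 15.6%, 15.3% and 15.6% higher. In HBL1 they are 25%, 15.6% and 31.2% lower and 12.5%, 9.38% and 15.6% higher, beside 11.4%, 11.4% and 17.7% of all genes lower and 7.87%, 7.53% and 12.5% higher. The shares higher in TMD8 thus lay near or under those of all genes. PRPS2, which makes the phosphoribosyl donor of nucleotides, changed by -0.63 to -0.51 in TMD8 and by -0.85 to -0.48 in HBL1, all called, the NGI-1 call in HBL1 being lost without NGI-1 replicate 2. H6PD, which starts the oxidative pentose phosphate steps in the endoplasmic reticulum, rose by 0.35 to 0.62 in TMD8 and by 0.72 to 1.34 in HBL1. Its acalabrutinib calls were lost without acalabrutinib replicate 1 of the line, without TMD8 DMSO replicate 1 or without HBL1 DMSO replicate 2, and its NGI-1 call in HBL1 without DMSO replicate 2 or NGI-1 replicate 1. PDK2, a pyruvate dehydrogenase kinase, rose with each compound, by 1.06 to 1.203 in TMD8 and 0.64 to 0.91 in HBL1, while PDK1 fell in TMD8. The HBL1 acalabrutinib call of PDK2 was lost without acalabrutinib replicate 1 or either DMSO library.

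MYC, a transcription factor that drives many glycolytic genes, fell at 3 h with acalabrutinib and copanlisib in TMD8 and with copanlisib in HBL1. In TMD8 at 3 h it was at 319.2 and 350.0 CPM in DMSO, 207.2 and 261.9 with NGI-1, 190.8 and 199.4 with acalabrutinib, and 147.9 and 170.4 with copanlisib. The changes were -0.51 ± 0.15 with NGI-1, not called, -0.78 ± 0.15 with acalabrutinib, lost without any 1 of the 4 libraries, and -1.07 ± 0.16 with copanlisib (adjusted p 6.4e-05). In HBL1 at 3 h they were -0.11 ± 0.15 and -0.44 ± 0.15 with NGI-1 and acalabrutinib, not called, and -0.64 ± 0.15 with copanlisib (adjusted p 0.017), a call lost without any 1 of its 4 libraries. At 24 h MYC fell with each compound, by 1.11, 1.28 and 0.97 in TMD8 and by 0.90, 0.49 and 0.54 in HBL1, where the acalabrutinib and copanlisib calls were lost without DMSO replicate 1 or replicate 2 of the compound. TXNIP, an arrestin that restrains glucose uptake, rose at 24 h by 1.04, 0.99 and 0.89 in TMD8 and by 0.99, 0.69 and 1.09 in HBL1, where the acalabrutinib call was lost without acalabrutinib replicate 1 or DMSO replicate 2. MXD4, a MAX partner that opposes MYC, rose by 1.29 to 1.49 in TMD8 and by 1.15 to 2.06 in HBL1. Of the 10 genes of that list 8 were tested, and at 24 h 1, 1 and 2 fell and 2, 2 and 2 rose in TMD8 with NGI-1, acalabrutinib and copanlisib, beside 2, 1 and 2 lower and 2, 2 and 2 higher in HBL1. With 8 genes these are shares of 12.5% to 25% lower and 25% higher, where 1 gene makes 12.5%, beside 11.4% to 17.7% of all genes lower and 7.53% to 15.6% higher, so the counts are no result about the list.

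A list of 18 genes of HIF1 and its targets outside glycolysis held calls in both directions. Of 16 tested, 3, 4 and 5 fell and 2, 2 and 2 rose in TMD8 at 24 h, and 1, 1 and 1 fell and 1, 2 and 4 rose in HBL1. In TMD8 18.8%, 25% and 31.2% were lower, beside 14.8%, 15.5% and 16% of all genes, and 12.5% each higher. In HBL1 6.25% each were lower, and 6.25%, 12.5% and 25% higher, beside 7.87%, 7.53% and 12.5% of all genes. With 16 genes 1 makes 6.25%, so the counts are no result about the list. With NGI-1 at 3 h, 2 rose in TMD8 (12.5%, beside 0.569%) and 0 in HBL1 (beside 0.353%). With copanlisib at 6 h, 5 rose in TMD8 (31.2%, beside 6.98%) and 2 fell. In HBL1 2 rose (12.5%, beside 4.2%) and 1 fell. HIF1A itself, the regulated subunit, was not called in any comparison at 24 h, with values of -0.20 to 0.20. VEGFA, the vascular growth factor, was higher at 3 h with NGI-1 in TMD8 (0.67 ± 0.16, lost without any 1 library) and fell with copanlisib at 24 h in both lines, with changes of -0.57 and -1.5, the TMD8 call being lost without copanlisib replicate 2 or DMSO replicate 2. Of 11 NRF2 genes, 9 were tested, and 2, 0 and 2 fell and 2, 2 and 1 rose in TMD8 at 24 h, beside 3, 1 and 4 lower and 0, 1 and 1 higher in HBL1. With 9 genes these are 0% to 44.4% lower and 0% to 22.2% higher, on both sides of the shares of all genes. DDIT4, an inhibitor of mTORC1 signalling, rose with NGI-1 at 3 h in TMD8 from 52.5 and 47.7 to 106.4 and 114.5 CPM, by 1.14 ± 0.16 (adjusted p 1.2e-05). At 24 h in TMD8 it was not called with NGI-1 (-0.08 ± 0.16), an effect lower than at 3 h by 1.22 ± 0.23 (adjusted p 0.00025), and fell with copanlisib by 0.57, a call lost without copanlisib replicate 1 or DMSO replicate 2. In HBL1 DDIT4 was not called at 3 h and rose at 24 h with each compound, by 1.38 ± 0.35, 1.54 ± 0.34 and 1.58 ± 0.34, the NGI-1 call being lost without DMSO replicate 2. How any of these regulators bears on the 34 members was not tested.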

How the data were processed

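The deposited table holds raw counts per gene, made by the authors with HTSeq on hg19 per the submitters' processing notes, with aligner, versions, annotation and strand setting not given in the sources used here. Of 25066 genes, 13881 passed edgeR's filterByExpr by group, all 34 members among them, and 3449 genes without an ID held 0.815% of reads. Counts were TMM scaled (factors 0.951 to 1.067) and fitted with 1 mean per group, 24 residual degrees of freedom, robust quasi-likelihood F tests and Benjamini-Hochberg adjustment in each of 36 comparisons (edgeR 4.0.16, R 4.3.3). Intervals are 95%, errors are SE, and n is 2 libraries per group. Members and lists were chosen with earlier results of these data known. The rule gave values in every library to members called in both lines at 24 h with the largest change, called at 3 h, or with the smallest adjusted p between lines, between compounds or between lines in DMSO; others shown this way were chosen after their values were seen. The test was checked on simulated data for 1 comparison, NGI-1 in TMD8 at 24 h, with changed genes drawn from all those tested. In the simulation 200 of 13881 genes were changed, where 4223 were called in the data, so its rates need not be those of the data. The test recovered 75 of 100 genes changed by 1 on the log2 scale and 41 of 100 changed by 0.5, with 6 false calls. A missing call therefore does not show a missing change. Alternatives were RLE, DESeq2 1.42.0, other filters, separate lines, a replicate block and each library left out.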

Additional observations from a re-analysis of the deposited data

Results flagged for a closer look

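These results stand out because an effect differed between lines or between times by the test of the difference itself. Between lines at 24 h (TMD8 minus HBL1, log2), PFKP differed by 0.72 with NGI-1, 0.62 with acalabrutinib and 0.60 with copanlisib. PFKFB3 differed by 0.82 with acalabrutinib and 1.13 with copanlisib, the first lost under 8 of 13 settings. With acalabrutinib HK2 differed by -0.54, PFKM by -0.41, ENO1 by -0.44, SLC16A1 by -0.68 and PDK1 by -0.88, the last lost without any 1 of 8 libraries.

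Between 24 h and 3 h the effect differed for 18 members with NGI-1, 19 with acalabrutinib and 18 with copanlisib in TMD8, and for 4, 2 and 10 in HBL1. The smallest p belonged to ENO1 in TMD8, with -0.72, -0.86 and -0.74 for the 3 compounds, and to LDHA in HBL1, with -0.66, -0.63 and -0.84.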

How the results depend on the processing

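Of 283 calls of members, 273 held with DESeq2, 270 with RLE scaling, 258 when all genes were fitted without a filter, 276 with a stricter filter and 283 with the replicate block, and fits of each line kept 239 of 248. Leaving out single libraries kept 1327 of 1656, lost 328 and reversed 1, SLC16A3 with copanlisib in TMD8 at 24 h, which ranged from -1.847 to 0.176. The cause of these moves was not tested, beyond the smaller number of libraries.

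Counts of called members moved by over 1.5 times in these cases. Acalabrutinib at 6 h went from 1 to 2 with separate lines, 3 with the replicate block and 2 with a stricter filter in TMD8, and to 2 with the block in HBL1. Copanlisib at 3 h in HBL1 went from 0 to 1 under all 6 alternatives. NGI-1 against acalabrutinib in TMD8 went from 0 to 1 with DESeq2 or separate lines and 2 with no filter or the block, and NGI-1 against copanlisib in HBL1 from 1 to 4 with the block. Line differences went from 1 to 3 for NGI-1 with no filter or the block, from 7 to 13 with no filter and 11 with the block for acalabrutinib, and from 2 to 5 with no filter, 6 with the block, 4 with RLE and 5 with a stricter filter for copanlisib. Time differences in HBL1 went from 4 to 9 for NGI-1 and from 10 to 16 for copanlisib with the block, and for acalabrutinib from 2 to 1 with DESeq2 or RLE and 6 with the block.

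Without single libraries the counts against DMSO ranged from 0 to 1 for NGI-1 at 6 h in TMD8, 8 to 15 for NGI-1 at 24 h in HBL1, 0 to 1 and 0 to 0 for acalabrutinib at 6 h in TMD8 and HBL1, 5 to 14 for acalabrutinib at 24 h in HBL1, 1 to 1 and 3 to 5 for copanlisib at 3 and 6 h in TMD8, and 1 to 4 for copanlisib at 6 h in HBL1. Between NGI-1 and copanlisib they ranged from 0 to 2 in TMD8 and 0 to 1 in HBL1, and line differences from 1 to 2, 2 to 9 and 1 to 3 for NGI-1, acalabrutinib and copanlisib. Time differences ranged from 7 to 17, 14 to 21 and 11 to 20 in TMD8 and 1 to 5, 1 to 2 and 5 to 13 in HBL1, and the DMSO time difference in TMD8 from 9 to 13.

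The replicate numbers are given by the labels with no word on pairing, and deviations of same-numbered libraries correlated by 0.047 to 0.176 in TMD8 (2 of 9 comparisons over 0.1) and by 0.122 to 0.237 in HBL1 (9 of 9). Of the 48 libraries, 22 correlated best with the other replicate of their group. The best match of the other 26 was a library of another compound with the same number, line and time. Libraries thus group in part by replicate number, and what a number shares is not stated. The main fit holds no replicate term, and the replicate block is an alternative. SLC2A3 had 24 to 92 reads per library and ENO3 24 to 64 in HBL1, which limits the precision of their values. SLC16A3 had 18 and 83 reads in the DMSO libraries of TMD8 at 24 h.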
